A study of Mus musculus with 4 samples.

Results

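The genes described here are 7 components and regulators of the complement system, C1ra, C1s1, C4b, C3, Cfd, Serping1 and Cd55, taken by their symbols from the 32285 genes of 4 single-cell count tables of mouse hindlimb muscle. They were chosen by name and followed in fibro-adipogenic progenitors (FAPs, the resident mesenchymal cells of muscle), mural cells (pericytes and vascular smooth muscle), Schwann cells and endothelial cells. In the study, male C57Bl/6J mice received 3 fractions of 8.2 Gy X-rays to a single hindlimb at 5 weeks of age, with the rest of the body under lead, and the opposite limb served as the control. Limbs were taken 24 hours after the last fraction or 56 days after irradiation, which gives a control (CON) and an irradiated (IR) library at each time. Fat and connective tissue were trimmed before digestion, cells of 3 limbs were pooled for each library, and live mononucleated cells were sorted. Every group is therefore 1 pooled library: no difference below has a replicate check, no p-value is given, and each 95% interval covers counting error only, not the variation between animals or cells. The CON limb belongs to a mouse whose other limb was irradiated, so it is no untreated animal.

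Complement is a cascade of plasma and tissue proteins that tags and opens membranes. C1r and C1s are the serine proteases of the C1 complex that start the classical pathway, C4 is cleaved by C1s, and C3 is the protein on which all routes meet. Factor D (Cfd, or adipsin) is the protease of the alternative route and is best known from fat cells. Serping1, the C1 inhibitor, blocks C1r and C1s, and Cd55 (decay accelerating factor) is a membrane protein that takes apart the enzymes that cleave C3. Liver makes most plasma complement, while mesenchymal cells of many tissues also transcribe several of these genes.

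On mm10, C1ra (ENSMUSG00000055172, chromosome 6, 124512405 to 124523443) and C1s1 (ENSMUSG00000038521, chromosome 6, 124530345 to 124542359) are neighbours. C4b (ENSMUSG00000073418) lies at 34728380 to 34743882 and C3 (ENSMUSG00000024164) at 57203970 to 57228136 of chromosome 17. Cfd (ENSMUSG00000061780) is at 79890853 to 79892655 of chromosome 10, Serping1 (ENSMUSG00000023224) at 84765387 to 84775444 of chromosome 2 and Cd55 (ENSMUSG00000026399) at 130439027 to 130462744 of chromosome 1. C4b, C1ra, C1s1 and Cd55 each have a near-identical copy (C4a, C1rb, C1s2 and Cd55b), and how reads shared with it were counted is uncertain. RefSeq windows on GRCm38.p6, from 250 bases before to 50 after a gene's start, were found for 5 of the 7 genes. The windows of C3 and Cd55 are shown because the FAP results turn on these genes. Capitals mark matches, on either strand, to the kB letters (GGG and CC with any 5 bases between them), the C/EBP letters TTGCNNAA, the interferon letters (GAAA, any 2 bases, GAAA) or the GAS letters TTCNNNGAA.
C3, chr17:57228087-57228386, minus strand: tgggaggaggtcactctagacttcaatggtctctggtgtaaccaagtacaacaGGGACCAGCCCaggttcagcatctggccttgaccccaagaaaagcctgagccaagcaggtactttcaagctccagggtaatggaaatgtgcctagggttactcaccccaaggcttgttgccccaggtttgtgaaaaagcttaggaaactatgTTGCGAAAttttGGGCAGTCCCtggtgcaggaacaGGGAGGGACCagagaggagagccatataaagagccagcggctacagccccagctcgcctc
Cd55, chr1:130462695-130462994, minus strand: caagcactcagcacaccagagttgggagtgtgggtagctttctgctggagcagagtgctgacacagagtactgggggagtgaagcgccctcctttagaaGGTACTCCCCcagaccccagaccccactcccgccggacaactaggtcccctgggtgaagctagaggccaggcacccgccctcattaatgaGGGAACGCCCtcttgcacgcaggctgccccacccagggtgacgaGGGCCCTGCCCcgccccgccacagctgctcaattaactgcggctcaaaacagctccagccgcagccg
The C3 window held the C/EBP match TTGCGAAA, which starts 45 bases before the gene's start, and 4 kB matches, of which 2 overlap. The Cd55 window held 4 kB matches, of which 2 overlap, and no match to the other letters. Over 32851 such windows, 50.8% held a kB match, 10.8% a C/EBP match, 8.30% a GAS match and 3.44% the interferon letters. These matches describe letters in a window and say nothing of binding.

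After barcodes under 200 genes or over 20% mitochondrial UMIs (unique molecular identifiers, each 1 captured transcript) were left out, 6544 of 7086 barcodes remained, 969 to 2539 a library. Gate membership needed at least 3 of a cell type's markers and at least 80% of all marker UMIs, and 3894 barcodes entered the 4 gates. The CON 24-hour, IR 24-hour, CON 56-day and IR 56-day libraries held 31, 48, 78 and 28 FAPs, 49, 158, 59 and 72 mural cells, 43, 92, 48 and 36 Schwann cells, and 452, 1450, 781 and 469 endothelial cells. In every library, the sum of 5 mesenchymal genes kept out of the gates (Dcn, Col1a2, Serpinf1, Fstl1, Mmp2) made up 25264 or more of each 1000000 UMIs in FAPs and 2218 or fewer in the other 3 gates. Cdkn1a, a p53 target that serves as a check of the irradiation labels, was 9.11 times as high in IR as in CON FAPs at 24 hours and 4.07 times at 56 days. In mural cells these ratios were 10.8 and 6.79 and in endothelium 7.40 and 8.99, but in Schwann cells 2.67 and 1.02 (0.842 to 1.24), so in the Schwann gate at 56 days this gene did not separate the libraries. Library pairs shared 1 to 3 barcodes.

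Of all UMIs in kept barcodes, FAPs held 52.6% for C1ra, 53.9% for C3, 48.1% for Serping1 and 38.5% for Cd55, but 4.4% for C4b and none for Cfd. C1s1 was split between mural cells, with 40.1%, and FAPs, with 36.7%. The place of most Cd55 UMIs differed between libraries: B cells held 53.3% in CON at 24 hours, FAPs 40.7% in IR at 24 hours and 48.1% in CON at 56 days, and endothelium 29.6% and FAPs 28.4% in IR at 56 days. These shares move with the number of cells of each type in a library. A level is given below as the UMIs of a gene per 1000000 UMIs summed over a gate, and changes in cell number do not enter it. The comparison of irradiated with shielded limbs asks how each cell type's complement RNA differs shortly and long after the dose. A gene counts as measured with at least 20 UMIs over both libraries and as higher or lower at 1.5-fold or more.

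**Figure D1:**
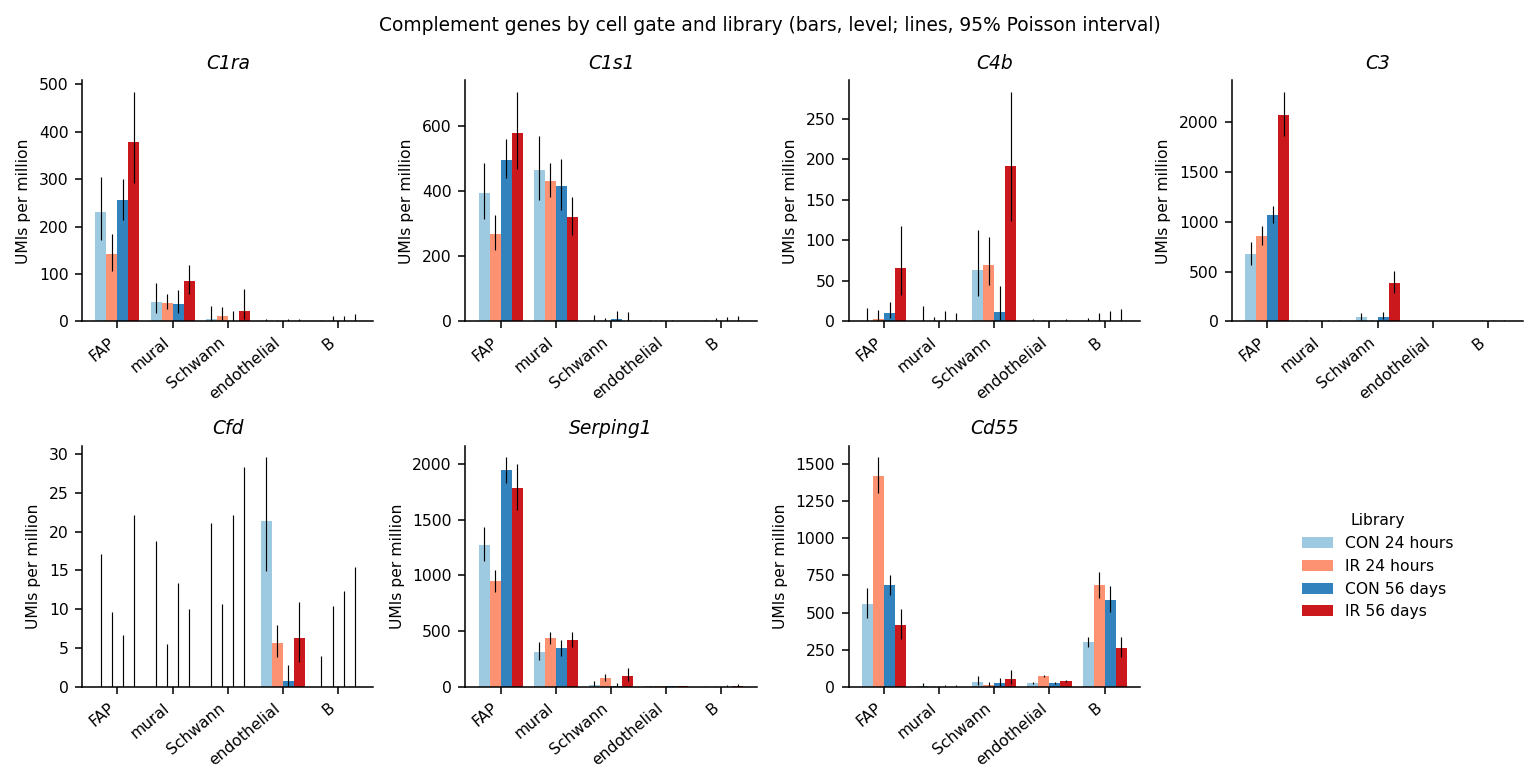
Level of each of the 7 genes (y axis, UMIs per 1000000 gate UMIs, linear and different for each gene) in 4 gates and in B cells (x axis), with a bar for each library and a line for the 95% Poisson interval. FAPs carry the tallest bars for C1ra, C3, Serping1 and Cd55, Schwann cells for C4b and endothelium for Cfd.

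At 24 hours, 5 of the 7 genes were measured in FAPs, with 1 higher (Cd55) and 1 lower (C1ra), where 22.2% of all measured genes were higher and 11.7% lower. At 56 days, 1 of 5 was higher (C3) and 1 lower (Cd55), against 15.3% and 23.8%. In mural cells 3 genes were measured at each time. None was higher or lower at 24 hours (19.5% and 14.2% of all measured genes), and at 56 days C1ra was higher and none lower (18.6% and 14.4%). In Schwann cells 1 of 2 was higher at 24 hours (Serping1) and 2 of 2 at 56 days (C4b and C3), with none lower (26.7% and 10.5% at 24 hours, 16.7% and 19.7% at 56 days). In endothelium Cd55 was higher at both times, while Cfd and Serping1 were lower at 24 hours, of 3 measured genes, and none of 2 at 56 days (16.2% and 6.38% at 24 hours, 12.9% and 12.5% at 56 days). With 2 to 5 measured genes a gate, a single gene sets the members' share, and nothing is read from it. The members' median log2 ratio in FAPs was -0.43 at 24 hours and 0.22 at 56 days, with 0.07 and -0.01 over all measured genes.

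**Figure D2:**
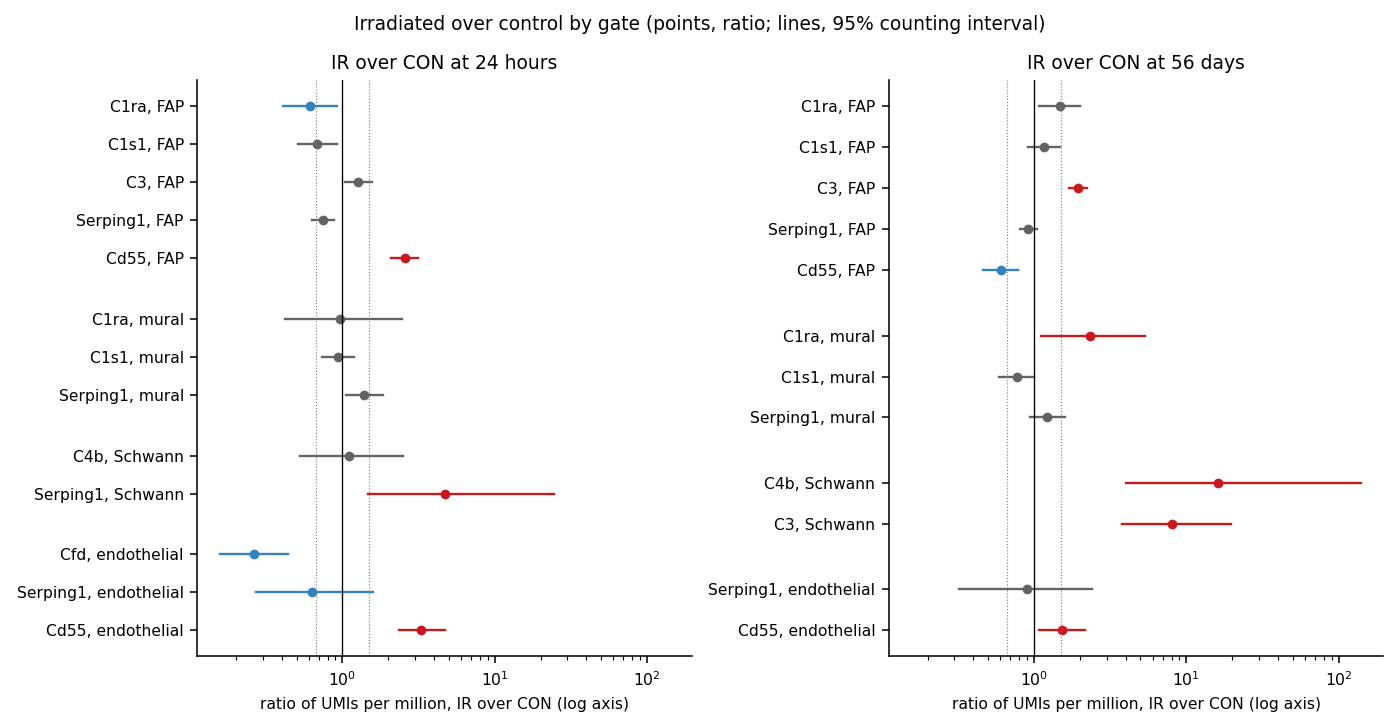
Ratio of the IR to the CON level (x axis, log scale) for each measured gene and gate at 24 hours (left) and 56 days (right), with 95% counting intervals. Red and blue mark ratios at least 1.5-fold up or down and dotted lines mark 1.5-fold. Cd55 in FAPs lies right of 1 at 24 hours (2.56) and left of it at 56 days (0.607).

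C1ra, the first protease of the C1 complex, was mainly a FAP gene among the 4 gates. Its FAP level was 231 in CON and 141 in IR at 24 hours, and 255 in CON and 378 in IR at 56 days. The IR library was thus the lowest of the 4 at 24 hours and the highest at 56 days. The IR to CON ratio was 0.610 (0.408 to 0.915) at 24 hours and 1.48 (1.08 to 2.01) at 56 days, on 50 to 141 UMIs a library. The 24-hour ratio was 0.803 with every FAP given the same weight, so the call as lower depends on that choice. Mural levels were 40.7, 39.1, 36.1 and 84.5 in the same order, so that only the IR 56-day library stood apart (ratio 2.34, 1.12 to 5.35, on 31 and 10 UMIs, or 1.45 with cells weighted equally). The share of mural cells with a C1ra UMI was 15.3% to 16.3% in the first 3 libraries and 30.6% in the last. Endothelium had 3 to 9 UMIs and Schwann cells 0 to 4. Outside the 4 gates, tenocytes (tendon cells) had 2, 8, 17 and 13 C1ra UMIs in gates of 3, 13, 29 and 16 cells.

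C1s1, whose product is cut by C1r and then cuts C4, was shared by FAPs and mural cells. FAP levels were 393, 269, 496 and 576 in CON and IR at 24 hours and CON and IR at 56 days. Mural levels were 463, 431, 415 and 319. The order of the pair changed: the intervals of the gates overlapped in both CON libraries, mural cells lay above FAPs in IR at 24 hours (383 to 484 against 220 to 326), and FAPs lay above mural cells in IR at 56 days (467 to 704 against 264 to 382). The FAP ratio was 0.685 (0.509 to 0.923) at 24 hours and 1.16 (0.912 to 1.47) at 56 days. The 24-hour value was within 1.5-fold by a small margin and 0.587 with cells weighted equally. The mural ratio was 0.932 (0.734 to 1.19) and 0.768 (0.588 to 1.00). Within mural cells, pericytes (714, 602, 759 and 516) had more C1s1 than smooth muscle cells (321, 247, 170 and 183) in each library. Within FAPs, cells with markers of the Pi16 kind, which lie around vessels and fascia, had 308, 227, 428 and 566, and cells of the Smoc2 kind had 569, 339, 575 and 593.

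Of FAPs with a C1ra UMI, 16 of 16, 22 of 28, 48 of 49 and 15 of 17 also had one of C1s1, where 23 of 31, 30 of 48, 67 of 78 and 21 of 28 of all FAPs did. Nothing is read from this overlap. Most mural cells with C1s1 had none of C1ra, which was found in 24.2%, 15.5%, 19.5% and 37.0% of them. The gates differ in depth (FAP medians of 4608 to 7191.5 UMIs a cell, mural medians of 3223 to 3781), and the part of depth in this contrast was not tested. Schwann cells had a single C1s1 UMI in all 4 libraries.

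C4b, whose product forms the next step of the classical route, was sparse and differently placed. The FAP gate had 0, 1, 6 and 11 UMIs and the mural gate none. Schwann cells had 11, 24, 2 and 25 UMIs, or levels of 62.9, 69.8, 11.97 and 192. The CON 56-day library was low and the IR 56-day library high, and the 24-hour pair lay between them. The ratio was 1.11 (0.523 to 2.51) at 24 hours and 16.05 (4.00 to 140) at 56 days, the latter against 2 UMIs. In the IR 56-day library 8 of 36 Schwann cells had a C4b UMI, and 2 of them held 19 of the 25. In those 2, the 5 mesenchymal genes above and the FAP gate markers had a summed level of 4785, against 1211 in the other 34. The same 2 cells held 0 Dcn UMIs, and the part of FAP RNA in the value was not tested. At 24 hours C4b lay in cells with non-myelinating markers, with 11 and 22 of the 11 and 24 UMIs, in 5 of 9 CON and 8 of 18 IR cells. At 56 days such cells held 1 of the 2 CON and 4 of the 25 IR UMIs, and 1 cell with myelinating markers held 9 of the IR UMIs. Non-myelinating cells were 3 of 48 CON and 7 of 36 IR Schwann cells at 56 days, so the mix of the gate differed, and its part in the ratio was not tested. Over all kept barcodes, 49.9% of the C4b UMIs were in barcodes of no gate, and 112 of those 202 were in barcodes whose leading marker list was the Schwann list. Macrophages held another 28.9%, with levels of 26.5, 25.05, 107 and 176.

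C3, the central component, lay highest in FAPs of the late irradiated library. FAP levels were 675 (570 to 794), 857 (766 to 955), 1071 (986 to 1161) and 2071 (1858 to 2302). The IR library was above its control at each time, by 1.27 (1.04 to 1.55) at 24 hours and 1.93 (1.69 to 2.21) at 56 days. The CON libraries also differed, by 1.59 (1.32 to 1.91) from 24 hours to 56 days. The share of FAPs with a C3 UMI was 58.1%, 47.9%, 57.7% and 57.1%, with no higher share in the late IR library than in its control. A single IR 56-day FAP held 110 of that library's 345 C3 UMIs, and without the top cell of each library the ratio was 1.46. With every FAP given the same weight it was 1.36 and without the 5% of barcodes with the most UMIs 1.49, each below 1.5-fold. The median FAP had 2.44 C3 UMIs per 10000 in CON and 0 in IR at 24 hours, against the direction of the summed level, and 2.42 in CON and 6.53 in IR at 56 days.

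The rise at 56 days was seen in the Pi16-type FAPs. Their C3 levels were 801, 814, 1902 and 3322 over 20, 30, 32 and 13 cells, and 12 of the 13 IR 56-day cells had a C3 UMI. Smoc2-type FAPs had 413, 971, 475 and 425 over 11, 15, 40 and 13 cells. The 56-day ratio was 1.75 (1.51 to 2.02) in the Pi16-type and 0.895 (0.572 to 1.35) in the Smoc2-type cells. At 24 hours it was the other way, with 1.02 (0.799 to 1.29) and 2.35 (1.57 to 3.63), the latter on 5 of 15 IR cells and 3 of 11 CON cells. The difference between the subgroups was not tested. In Pi16-type cells the controls differed by 2.37 (1.93 to 2.93), more than IR and CON did at 56 days. The FAP with 110 C3 UMIs was 1 of the 13 IR 56-day Pi16-type cells, which held 317 in all. Their ratio without that cell was not computed. Pi16-type cells made up 20 of 31, 30 of 48, 32 of 78 and 13 of 28 FAPs, so the mix of the gate differed between libraries.

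**Figure D3:**
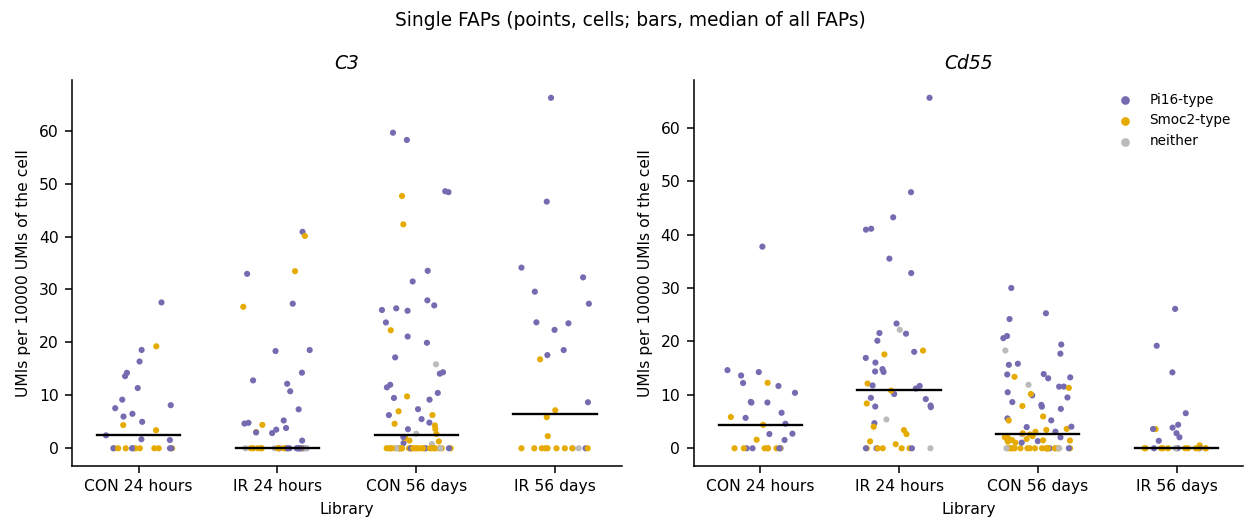
C3 (left) and Cd55 (right) in single FAPs (y axis, UMIs per 10000 UMIs of the cell) by library (x axis), coloured by subgroup, with the median of all FAPs of a library as a bar. The highest IR 56-day C3 points are Pi16-type cells, and the Cd55 median is 10.98 in IR at 24 hours and 0 in IR at 56 days.

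Mural cells had no C3 UMI in any library, in 49, 158, 59 and 72 cells. Endothelium had 1 to 5 UMIs and B cells none. In Schwann cells C3 had 7, 0, 8 and 50 UMIs, found in 1, 0, 1 and 4 cells, and 1 cell held 34 of the last 50. The 56-day ratio of 8.02 (3.77 to 19.6) therefore rests on a handful of cells. The 3 IR 56-day Schwann cells with at least 5 C3 UMIs had a summed level of 4191 for the same FAP genes, against 1195 in the other 33. Those 3 cells held 1 Dcn UMI, and the part of FAP RNA in the C3 ratio was not tested. Outside the 4 gates, neutrophils held 16.7% of all C3 UMIs, with levels of 214, 173, 281 and 392.

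Cfd, the factor D protease, was not seen in FAPs, mural cells or Schwann cells: 0 of 31, 48, 78 and 28 FAPs had a UMI. Taking 3 over the number of cells as a rough limit, up to 9.68%, 6.25%, 3.85% and 10.7% of FAPs could have one. These limits are not the exact binomial ones used for other shares, and they do not limit the share of FAPs that express the gene. Endothelium had 36, 30, 2 and 12 Cfd UMIs in 14, 20, 2 and 6 cells, or levels of 21.4, 5.62, 0.770 and 6.25. The CON 24-hour library was the highest and the CON 56-day library the lowest. The ratio was 0.263 (0.157 to 0.440) at 24 hours, while the 56-day pair was below the 20 UMIs needed to be called measured. The CON libraries were further apart than the 24-hour pair: 56 days over 24 hours was 0.0361 (0.0042 to 0.140). Nearly all of these UMIs lay in cells with capillary markers (36, 29, 2 and 9).

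Fat cells, the classic source of Cfd, were looked for with Adipoq, Plin1, Cidec, Lep, Retn and Adig. In endothelium the list had 5, 5, 3 and 3 of 6 genes with a UMI and summed levels of 4.75, 3.00, 1.93 and 3.65, with Lep at 0 in the first 3 libraries. In FAPs the list had 1 UMI in all, and in Schwann cells none. In mural cells, which had no Cfd UMI, it had 1, 1, 0 and 2 UMIs, or levels of 5.09, 1.50, 0 and 5.45. Within endothelium the list was highest in the library where Cfd was highest, but its endothelial levels rest on 8, 16, 5 and 7 UMIs, so its order is uncertain. The part of fat cell RNA in the Cfd levels was not tested. A further 40 Cfd UMIs lay in barcodes of no gate, 30 of them in 3 barcodes with no marker UMI.

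Serping1, the C1 inhibitor, was found in most FAPs. A UMI was seen in 80.6%, 85.4%, 96.2% and 96.4% of FAPs, and levels were 1276, 951, 1943 and 1783. Both 56-day libraries were above both 24-hour ones. The IR to CON ratio was 0.745 (0.635 to 0.874) at 24 hours and 0.918 (0.804 to 1.04) at 56 days, so neither reached 1.5-fold, while the CON libraries differed by 1.52 (1.33 to 1.74). The Pi16-type (1233, 994, 2112 and 1813) and Smoc2-type FAPs (1366, 901, 1762 and 1838) followed the same order as the whole gate except that the Smoc2-type levels at 56 days were reversed, within their intervals.

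Mural cells also carried Serping1, with levels of 315, 437, 347 and 422. Here IR was above CON at both times, by 1.39 (1.05 to 1.85) and 1.22 (0.938 to 1.59), below 1.5-fold. The 24-hour ratio was 0.768 in a random thinning to 1000 UMIs a cell, and above 1 in 98 of 100 further draws. The smooth muscle part at 56 days had 1.69 (1.10 to 2.66) and the pericytes 1.06 (0.689 to 1.61). Of mural cells with C1s1, 69.7% to 80.2% also had Serping1, beside 55.1% to 73.6% of all mural cells. In FAPs these shares were 91.3% to 100% and 80.6% to 96.4%. Schwann cells had 3, 28, 1 and 13 UMIs, and the 24-hour ratio of 4.74 (1.46 to 24.4) comes from 2 IR cells that held 27 of the 28. Those 2 cells had a median of 16161.5 UMIs, against 3492.5 in the other 90, and all 296 Dcn UMIs of the gate. The part of FAP RNA in this ratio was not tested. With every Schwann cell given the same weight it was 0.990, and without the 5% of barcodes with the most UMIs it was 0.172. Endothelium had 9, 18, 12 and 8 UMIs. Its ratio of 0.632 at 24 hours had an interval from 0.269 to 1.60, so the call as lower is within counting error. Outside the 4 gates, tenocytes held 3.93% and satellite cells (muscle stem cells) 2.78% of all Serping1 UMIs.

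Cd55, the membrane regulator, differed most between the FAP libraries at 24 hours among the 5 measured members. FAP levels were 555 (460 to 663) in CON and 1421 (1304 to 1545) in IR at 24 hours, and 682 (615 to 754) in CON and 414 (322 to 524) in IR at 56 days. The IR libraries were the highest and the lowest of the 4, with both controls between them. The ratio was 2.56 (2.10 to 3.15) at 24 hours and 0.607 (0.463 to 0.787) at 56 days. A Cd55 UMI was seen in 64.5%, 81.2%, 69.2% and 42.9% of FAPs, and in 34.6%, 62.2%, 36.5% and 8% when each cell was thinned to 1000 UMIs. A single cell held 37.7% of the IR 56-day UMIs, and without the top cell of each library the 56-day ratio was 0.412. With a gate that asks for 95% of marker UMIs it was 0.752, within 1.5-fold.

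Both kinds of FAP had more Cd55 in IR than in CON at 24 hours and less at 56 days. Cd55 in Pi16-type cells was 685, 2002, 1184 and 702, and in Smoc2-type cells 285, 671, 214 and 30.4. The 24-hour ratios were 2.92 (2.35 to 3.67) and 2.36 (1.45 to 4.02). The 56-day ratios were 0.593 (0.447 to 0.776) and 0.142 (0.0168 to 0.537), the last on 2 and 58 UMIs. In Pi16-type cells the controls differed by 1.73 (1.37 to 2.19) from 24 hours to 56 days. There the IR 56-day level (702) was near that of CON at 24 hours (685), so it was not the lowest of the 4. Pi16-type cells were above Smoc2-type cells in each library. Of FAPs with a C3 UMI, 83.3%, 95.7%, 86.7% and 68.8% also had Cd55. Of all FAPs, 20 of 31, 39 of 48, 54 of 78 and 12 of 28 had it, and nothing is read from the overlap.

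**Figure D4:**
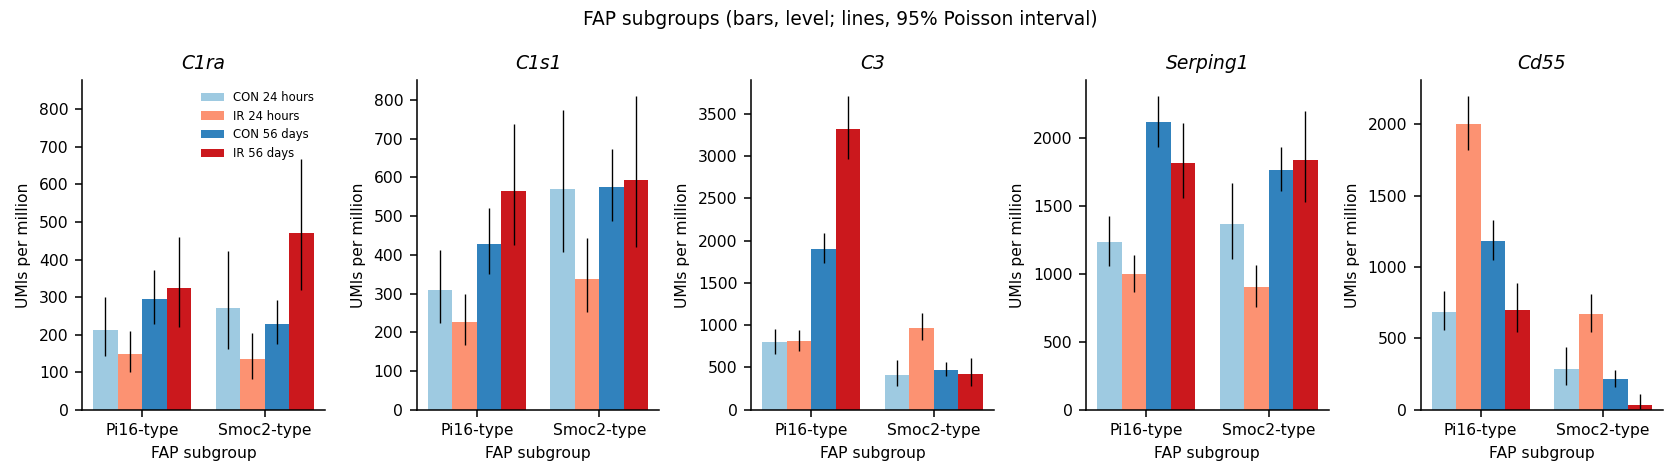
Levels of 5 complement genes (y axes, UMIs per 1000000) in Pi16-type and Smoc2-type FAPs (x axis), with a bar for each library and 95% Poisson intervals. C3 is tallest in Pi16-type cells of the IR 56-day library (3322) and Cd55 in Pi16-type cells of the IR 24-hour library (2002).

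In endothelium Cd55 was lower than in FAPs but showed the early rise too. Levels were 22.6, 74.2, 24.7 and 37.5, on 38, 396, 64 and 72 UMIs. Both IR libraries were above both controls, and the controls differed by 1.09 (0.721 to 1.68), within counting error. The ratio was 3.29 (2.36 to 4.72) at 24 hours and 1.52 (1.07 to 2.16) at 56 days, the latter 1.47 with TMM scaling. A Cd55 UMI was found in 6.64%, 18.4%, 6.15% and 9.81% of endothelial cells (2.76%, 5.87%, 2.81% and 3.12% after thinning). Mural medians of 3223 to 3781 UMIs a cell are near those of endothelium (2961 to 3550). Mural cells had 1 Cd55 UMI in all 338 cells of the 4 libraries. Schwann cells, with medians of 2929.5 to 3787, had Cd55 UMIs in 3 of 43, 4 of 92, 2 of 48 and 4 of 36 cells. Schwann levels were 34.3, 11.6, 23.9 and 53.8, on few UMIs. Endothelium was well above them only in IR at 24 hours, and below them in CON at 24 hours and IR at 56 days. The part of free RNA in the endothelial levels was not tested. Capillary cells had 18.8, 68.5, 15.5 and 33.8, with ratios of 3.65 (2.46 to 5.62) and 2.17 (1.38 to 3.46). Venous cells had the higher levels (75.9, 209, 130 and 145), with ratios of 2.76 (1.24 to 7.23) and 1.11 (0.448 to 2.53).

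B cells, which carried 26.2% of all Cd55 UMIs, had levels of 301, 684, 587 and 260. Their ratio was 2.28 (1.91 to 2.71) at 24 hours and 0.442 (0.325 to 0.594) at 56 days, the directions seen in FAPs. The B cell controls differed by 1.95 (1.61 to 2.37) between the times, which is nearly as much as the IR and CON libraries did. Schwann cells had 4 to 7 Cd55 UMIs a library.

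**Figure D5:**
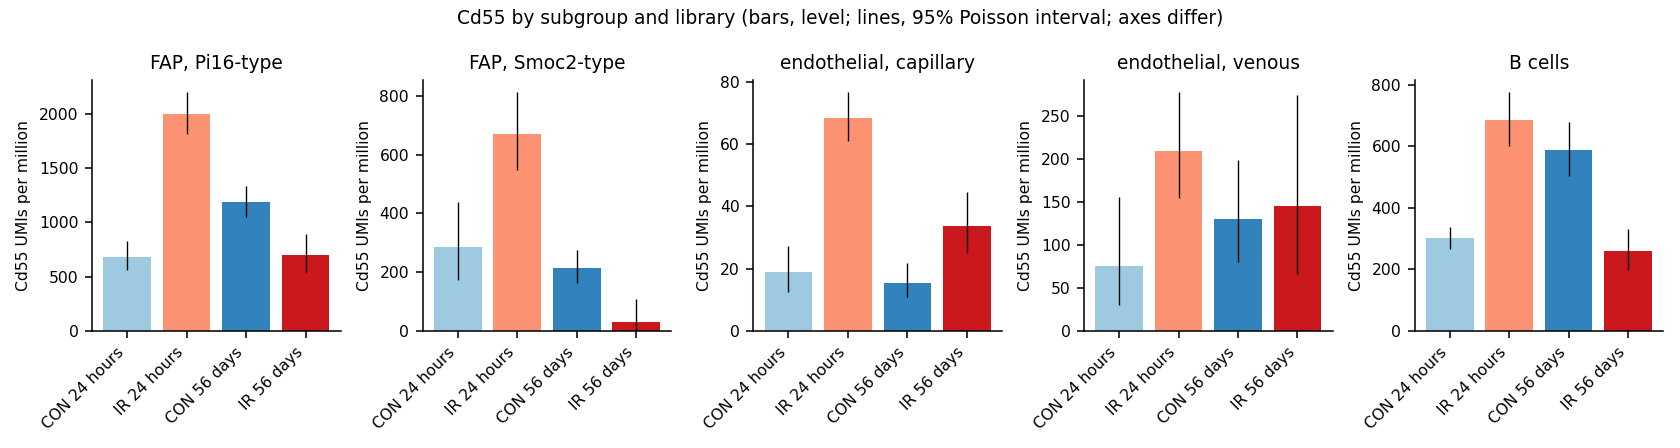
Cd55 level (y axes, UMIs per 1000000, different scales) by library (x axis) in Pi16-type and Smoc2-type FAPs, capillary and venous endothelium and B cells, with 95% Poisson intervals. The IR 24-hour bar is the tallest in all 5 panels, and the IR 56-day bar is below its control in both FAP panels and in B cells.

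A wider list of 48 complement genes includes the 7, whose calls are counted again here. In FAPs 9 were measured at 24 hours, with 4 higher and 2 lower (22.2% and 11.7% of all measured genes), and 13 at 56 days, with 2 higher and 4 lower (15.3% and 23.8%). Mural cells had 2 of 8 higher and none lower at 24 hours (19.5% and 14.2%), and 1 of 8 each way at 56 days (18.6% and 14.4%). Schwann cells had 1 of 4 higher at 24 hours (26.7%) and 2 of 3 at 56 days (16.7%), and none lower (10.5% and 19.7%). Those 3 calls are Serping1, C4b and C3 of the 7. Endothelium had 2 higher and 4 lower of 11 at 24 hours (16.2% and 6.38%), and 2 each way of 9 at 56 days (12.9% and 12.5%). The list's median log2 ratio in FAPs was 0.34 at 24 hours and -0.08 at 56 days, beside 0.07 and -0.01 over all measured genes.

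Among the regulators of this list, Cd46, a membrane cofactor for the breakdown of C3b, was lower in endothelium at 56 days (0.208, 0.0853 to 0.441). Cd59a, which blocks the membrane attack complex, was lower in endothelium at 24 hours (0.569, 0.478 to 0.678), on 371 and 206 UMIs. Cr1l, the rodent Crry protein that also checks C3 cleavage, was higher in mural cells at 24 hours (2.44, 1.17 to 5.88). Vtn, vitronectin, was lower in FAPs at 24 hours (0.294, 0.138 to 0.596), on 13 and 25 UMIs, and mural cells of CON 24 hours had a Vtn level of 1612.

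Of the components, Cfb, the partner of factor D in the alternative route, was higher at 56 days in FAPs (2.40, 1.50 to 3.81) and in endothelium (1.69, 1.04 to 2.78). C7, a part of the membrane attack complex, was lower in FAPs at 56 days (0.172, 0.0812 to 0.323), on 10 and 193 UMIs. Colec12, a membrane collectin, was higher in FAPs at 24 hours (2.38, 1.31 to 4.62). Some of these genes also differed between the controls, in FAPs by 12.6 for C7, 6.13 for Cfb and 3.58 for Colec12 from 24 hours to 56 days, and in endothelium by 2.31 for Cfb. The control differences of C7, Colec12 and Cfb exceed their IR to CON differences in those gates. For C7 the log2 ratios were 3.65 between the controls and -2.54 for IR over CON.

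By the correlation of log2 levels over 32 gate and library profiles, the genes most like each member were as follows. C1ra was most like Col6a1 (r = 0.979), Col6a2 and Adamts2, and Serping1 most like Col6a1 (0.988), Col6a3 and Col6a2. C1s1 was most like Cygb (0.988), C1qtnf2 and Gpc6. C3 was most like Pi16 (0.882), Antxr2 and Abca9. Cd55 was most like C1galt1 (0.746), Dpp4 and Eif2ak3. Cfd was most like Gkn3 (0.886), Tmem252 and Fam167b, and C4b most like Tiam1 (0.807), Metrnl and Abhd12. The profiles share 4 libraries and their depths, and the values describe placement over cell types, with no p.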

How the data were processed

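Single-cell RNA of sorted hindlimb muscle cells was counted as UMIs per gene and barcode. The counts are those the authors deposited; per the submitters' processing notes Cell Ranger 5.0.0 and mm10 were used, and no scaling or removal of free RNA was found in the values. A pooled library of 3 limbs stands for each of 4 groups. Barcodes under 200 genes or 500 UMIs, or over 20% mitochondrial UMIs, were left out. A gate needed at least 3 distinct own markers and 80% of the UMIs over 12 marker lists, with no complement gene on a list. Subgroups needed at least 2 own markers and more than of the other lists, and gates with at least 25 cells and subgroups with at least 10 were compared. No doublet caller was run. The 80% rule and the alternatives without the 5% of barcodes with the most UMIs bear on mixed cells.

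Each gene's UMIs in a gate were added up and divided by the gate total. Levels have exact Poisson, shares exact binomial (Clopper-Pearson) and ratios exact conditional binomial 95% intervals, which cover counting error only. With 1 library a group there is no test. Median UMIs a kept barcode were 3468, 3057, 3627 and 3465 in the CON and IR 24-hour and CON and IR 56-day libraries. The 7 genes and all lists were chosen with earlier results of these data known. The genes named outside the 7 were those of the wider list with at least 20 UMIs, 1.5-fold and an interval without 1 (at most 6 for a gate and time), 3 genes by likeness (log2 of the level plus 10, genes with at least 200 UMIs), and Cdkn1a. A gene of the wider list that this rule names is not reported here. Alternatives changed the cell filters, the gates, the weights of cells, the scaling (edgeR 4.0.16 TMM factors among them) and the thresholds. Python 3.11.15, numpy 2.4.6, scipy 1.17.1 and pandas 2.3.3 were used. The ratios and calls were also run on simulated Poisson counts. That simulation holds counting error only, with no variation between cells or animals, so it does not show how reliable the calls are in these libraries.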

Additional observations from a re-analysis of the deposited data

Results flagged for a closer look

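Cd55 moved in opposite directions at the 2 times in both cell types below. In FAPs its IR to CON ratio was 2.56 at 24 hours and 0.607 at 56 days. In B cells it was 2.28 at 24 hours and 0.442 at 56 days. The difference between the times was not tested, since each value rests on 1 library against 1. Between the times the controls alone differed 1.95-fold in B cells, 1.73-fold in Pi16-type FAPs and 1.23-fold in all FAPs.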

How the results depend on the processing

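No paired analysis was possible because each group is 1 pooled library. Over 27 single ratios and 346 alternative values, 318 stayed within the counting interval of the main value, 24 moved outside it and 4 reversed. Reversed means that a ratio of at least 1.5-fold with an interval without 1 passed to the other side of 1. The 24-hour Cd55 ratio in FAPs stayed within its interval under the alternatives run. Cd55 in endothelium at 24 hours was 2.17 in a random thinning of cells to 1000 UMIs. C3 in FAPs at 56 days was 1.66 with a 60% and 2.22 with a 95% marker rule, 1.36 with cells weighted equally, 1.49 without the 5% of barcodes with the most UMIs, 1.46 without the top cell and 1.45 as the expected value of thinning. Cd55 in FAPs at 56 days was 0.430 without the 5% and 0.412 without the top cell. The 4 reversals were Serping1 in Schwann cells at 24 hours (0.990 with equal weights, 0.172 without the 5%), and, in that thinning, Cfd in endothelium at 24 hours (1.27, on 12 and 3 UMIs) and C1ra in mural cells at 56 days (0.864, on 3 and 3 UMIs). Ratios not so called also crossed 1 and left their interval. Under the same thinning these were Serping1 in mural cells at 24 hours (0.768), in FAPs at 56 days (1.13) and in endothelium at 56 days (6.48, on 4 and 1 UMIs), and C1s1 in mural cells (1.19 at 24 hours, 1.02 at 56 days). Serping1 in endothelium was 2.36 at 24 hours with the 95% rule and 2.49 at 56 days with the 60% rule, and in FAPs at 56 days 1.07 without the 5%.

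A thinned ratio of a low gene varied with the random draw: an earlier draw of the same kind had other reversals. So 100 draws and the expected value were added after the data were seen. Cfd in endothelium at 24 hours was below 1 in 100 of 100 (0.113 to 0.792), and C1ra in mural cells at 56 days above 1 in 87 of 94 that gave a ratio. Cd55 was above 1 at 24 hours in 100 of 100 in both FAPs and endothelium, while at 56 days it was below 1 in 96 of 100 in FAPs and above 1 in 83 of 100 in endothelium. C3 in FAPs at 56 days was above 1 in 97, and C1ra in FAPs at 24 hours below 1 in 73.

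Counts over the 4 gates moved by more than 1.5 times as follows. Members lower at 24 hours (3) were 1 under thinning, without the top cell and at 2-fold. Members higher at 56 days (5) were 3 with equal weights, without the 5%, with at least 50 UMIs and at 2-fold, 2 without the top cell and 9 with at least 10 UMIs. Members lower at 56 days (1) were 2 with a 10% mitochondrial limit and 0 with the 95% rule and at 2-fold. Of the wider list, the genes higher at 24 hours (9) were 3 under thinning and 5 with at least 50 UMIs, and those lower (6) were 3 under both and 2 at 2-fold. At 56 days those higher (7) were 11 with the 60% rule, 12 with at least 10 UMIs, and 4 without the top cell and at 2-fold, and those lower (7) were 4 with the 95% rule, under thinning and with at least 50 UMIs. In the main setting, 16.2% to 26.7% of all measured genes of a gate were higher and 6.38% to 14.2% lower at 24 hours. At 56 days these shares were 12.9% to 18.6% and 12.5% to 23.8%. At 2-fold the shares of all measured genes were 8.59% higher and 2.57% lower at 24 hours and 5.31% and 6.29% at 56 days. Shares under the other alternatives are not given, so the moves in these counts are not read as particular to complement genes. FAPs number 28 to 78 a library, and genes under 20 UMIs were not called.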
